A study of Mus musculus with 2 samples.

Results

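Ncl, Nop58, Rrs1, Imp4 and Wdr75 are the 5 ribosome biogenesis genes followed here in LβT2 cells, an immortalised mouse gonadotrope line, after treatment with GnRH or vehicle. They were named as a list and found by symbol, and they are 5 of the 1068 genes analysed. All 5 lie on chromosome 1, as do the 1062 analysed genes that could be placed on the genome. A culture given 2 nM GnRH for 40 min and a culture given vehicle for the same time, both from cells at passage 15, were each profiled as 1 droplet-based single-cell library. There were 1992 called cells after vehicle and 1889 after GnRH. Each captured transcript carried a unique molecular identifier (UMI), so counts are of molecules and not of PCR copies.

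Ribosomes are assembled in the nucleolus. RNA polymerase I makes a long precursor of the ribosomal RNAs, small nucleolar ribonucleoproteins (snoRNPs) guide its chemical modification and folding, and large processing complexes cut it and load ribosomal proteins to give the small and the large subunit. The work is costly for a cell, is tied to growth and division, and is known to be driven by growth signals and the Myc transcription factor. Ncl encodes nucleolin, an abundant nucleolar RNA-binding protein that acts in ribosomal RNA transcription and early processing. Nop58 encodes a core protein of the box C/D snoRNPs, which direct ribose methylation. Imp4 and Wdr75 encode parts of the small subunit processome, the complex that matures the small subunit. Rrs1 encodes an assembly factor of the large subunit.

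The analysed genes summed to 1126320 UMIs after vehicle and 1118763 after GnRH, with medians of 543.5 and 561 per cell. These are totals of the analysed genes and not of the libraries, and levels are given below as UMIs scaled to a total of 1000000 (CPM). A UMI count is 1 per captured molecule whatever its length, so CPM was not divided by gene length. Of 9 gonadotrope markers, 4 were among the analysed genes (Inha, Inhbb, Scg2 and Ptprn) and all were detected, while the gonadotropin subunit and GnRH receptor genes were not analysed here. The fibroblast markers Col3a1 and Col5a2 had 0 UMIs in both libraries, Fn1 had 640 and 712, and the leucocyte marker Cxcr4 had 1 UMI in each. Cells were numbered and not given by barcode in the count table, so shared barcodes could not be counted. No GnRH-treated cell had the same counts as a vehicle-treated cell (0 of 1889). With 1 library per condition there was no replicate, no test was run, and all intervals are 95% intervals of counting error.

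Promoter sequences from RefSeq (build GRCm38.p6) were matched for 4 of the 5 genes. Stretches from 200 to 36 bases before the transcription start are shown for them because Nop58 and Ncl, the gene with the highest GnRH over vehicle ratio of the 5 and the most abundant of the 5, gave the results described below, and Imp4 and Wdr75 stand beside them for comparison. Capitals mark matches, on either strand, to TGACGT (the core of the cAMP response element, CRE), CACGTG (the E-box that Myc can bind) or CCAAT (the CCAAT box). The sequences lie on chromosome 1 at chr1:59684806-59684970 (plus strand) for Nop58, chr1:86359491-86359655 (minus strand) for Ncl, chr1:34439629-34439793 (plus strand) for Imp4 and chr1:45794966-45795130 (plus strand) for Wdr75.
Nop58: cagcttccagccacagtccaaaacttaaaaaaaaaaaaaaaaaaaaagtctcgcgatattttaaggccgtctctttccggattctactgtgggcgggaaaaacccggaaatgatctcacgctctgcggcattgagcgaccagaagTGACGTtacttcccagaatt
Ncl: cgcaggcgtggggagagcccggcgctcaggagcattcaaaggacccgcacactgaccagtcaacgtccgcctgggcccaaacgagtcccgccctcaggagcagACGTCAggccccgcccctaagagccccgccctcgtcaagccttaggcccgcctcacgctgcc
Imp4: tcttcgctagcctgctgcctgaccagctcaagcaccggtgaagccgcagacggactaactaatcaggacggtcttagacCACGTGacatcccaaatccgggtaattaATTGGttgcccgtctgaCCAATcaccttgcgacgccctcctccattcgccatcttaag
Wdr75: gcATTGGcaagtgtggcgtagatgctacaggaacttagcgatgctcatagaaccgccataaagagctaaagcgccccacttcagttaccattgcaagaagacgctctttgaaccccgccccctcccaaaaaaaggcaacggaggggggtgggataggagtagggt

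Both Nop58 and Ncl held 1 CRE core, which began 55 bases before the start in Nop58 and 97 bases before it in Ncl. Of 32851 promoter stretches of the same length and position, 4.32% held a CRE core. Imp4 held an E-box, found in 4.07% of stretches, and 2 CCAAT boxes. Wdr75 held 1 CCAAT box, found in 25.6% of stretches. None of the 4 held CCGGAAG (an ETS factor core, in 4.12%), GCGGGGGCG (an EGR site, in 1.71%) or its variant GCGTGGGCG (in 0.377%). The Ncl stretch was 69.7% G and C and the Nop58 stretch 44.2%, against a median of 52.7%. These matches describe the letters only and not the binding of a factor.

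The levels of the 5 genes spanned more than an order of magnitude. Ncl (ENSMUSG00000026234; chromosome 1, 86344719 to 86359400, minus strand) was counted 14023 times after vehicle and 13453 times after GnRH, or 12450 CPM (interval 12245 to 12658) and 12025 CPM (11823 to 12230). It took 1.20% of the analysed UMIs of GnRH-treated cells and was in both libraries together the 13th most abundant of the 1068 genes, below the ribosomal protein genes Rpl37a, Rpl31 and Rpl7 at ranks 1, 4 and 5. The other 4 genes were far less abundant.

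Nop58 (ENSMUSG00000026020; chromosome 1, 59684971 to 59719044, plus strand) had 1856 and 2127 UMIs in the vehicle and GnRH libraries. Imp4 (ENSMUSG00000026127; 34439851 to 34449356, plus strand) had 1263 and 1154, and Rrs1 (ENSMUSG00000061024; 9545408 to 9547455, plus strand) had 992 and 944. Wdr75 (ENSMUSG00000025995; 45795166 to 45823619, plus strand) was the least abundant, with 406 and 359 UMIs. The order of levels, Ncl, Nop58, Imp4, Rrs1 and Wdr75, was the same in both libraries, and the counting intervals of neighbours in it did not overlap in either. Nop58 overlaps 4 annotated snoRNAs on the same strand, and Ncl overlaps 3 snoRNAs and a microRNA. Imp4 overlaps an antisense gene, Gm28306, which had 3 and 1 UMIs. Wdr75 and Rrs1 overlap no annotated gene.

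The first comparison was the level of each gene in GnRH-treated against vehicle-treated cells. Nop58 was higher after GnRH, at 1901 CPM (1821 to 1984) against 1648 CPM (1574 to 1725), a 1.15-fold difference. The other 4 genes were lower, with GnRH over vehicle ratios of 0.890 (Wdr75) to 0.966 (Ncl). None of the 5 reached a 2-fold difference in either direction, against 1.22% of the 409 genes with at least 100 UMIs that were 2-fold higher and 0% that were 2-fold lower. Of the 5, 0 were as much as 25% higher, against 5.62% of the 409 genes, and 0 were as much as 20% lower, against 7.82%. After thinning of cells to 300 UMIs the last count was 1, since the log2 ratio of Wdr75 went from -0.17 to -0.37 at a mean near 0.1 UMI per cell. The share of 7.82% is of full depth, and the share of all genes after thinning is not given here.

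The log2 ratio of Nop58 was 0.21 (interval 0.12 to 0.30), the 28th highest of 409. The median gene was at -0.09, with an interquartile range of -0.19 to 0.00084, and Nop58 stood 0.30 above that median. The intervals of its CPM in the 2 libraries did not overlap, which held for 2 of the 5 genes (Nop58 and Ncl) and for 32.3% of the 409, and the difference has no replicate check. The direction was the same under each of 8 other scalings and cell selections, from 0.20 to 0.30.

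Ncl had a log2 ratio of -0.05 (-0.08 to -0.02), close to the median gene, and its CPM intervals in the 2 libraries did not overlap. Its sign depends on the scaling, since median-of-ratios gave 0.03 and TMM (trimmed mean of M values) 0.04. These scalings move all genes alike, and Ncl stood 0.04 above the median gene in each. The log2 ratios of the ribosomal protein genes were -0.03 for Rpl7, 0.01 for Rpl31 and 0.08 for Rpl37a, the latter ranking 53rd of 409. The processome genes Imp4 (-0.12, interval -0.24 to -0.0042) and Wdr75 (-0.17, -0.38 to 0.04) and the large subunit factor Rrs1 (-0.06, -0.19 to 0.07) were within the interquartile range of all genes. Rrs1 was also above 0 under median-of-ratios, TMM and unscaled means. Summed over the 5 genes, 18540 vehicle and 18037 GnRH UMIs gave a log2 ratio of -0.03 (-0.06 to -0.00032), with most of these UMIs from Ncl. The sign of this sum also depends on the scaling, since leaving Btg2 out of the totals raised all other genes alike by 0.04. Without Ncl the sum of 4 genes was at 0.03 (-0.03 to 0.09). For scale, the early response gene Btg2, which had the highest ratio of all 409 genes, was at 5.01.

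Of 56 further ribosome biogenesis genes on a list drawn up for this comparison, 4 were among the genes analysed. Nifk, which binds the proliferation antigen Ki-67 and acts in large subunit maturation, had 1236 vehicle and 1232 GnRH UMIs (log2 ratio 0.01, -0.11 to 0.12). Ddx18, an RNA helicase of the nucleolus, had 1968 and 1880 (-0.06, -0.15 to 0.04). Utp14b, a paralogue of the processome gene Utp14a, had 823 and 772 (-0.08, -0.23 to 0.06). It lies inside Acsl3 on the same strand (1383 and 1255 UMIs), and reads of these 2 genes could be split between them.

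Wdr12, a partner of Pes1 and Bop1 in large subunit assembly, was the one gene of the 9 that differed by as much as 20%, by a narrow margin that most other settings did not keep. It had 689 vehicle and 544 GnRH UMIs, or 612 CPM (567 to 659) against 486 CPM (446 to 529), a log2 ratio of -0.33 (-0.50 to -0.17) that ranked 381st of 409 and lay 0.24 below the median gene. The ratio was below 0 under all 8 alternatives, but it fell short of 20% lower under TMM (-0.24), median-of-ratios (-0.25), unscaled means (-0.26), without Btg2 in the totals (-0.29), as a mean of CPM per cell (-0.30) and without the 5% of cells with most UMIs (-0.30). Its start overlaps the start of Carf, which runs the other way, over 399 bases. Carf was itself lower after GnRH, with 351 and 218 UMIs (log2 ratio -0.68, -0.93 to -0.43). Whether strand was used in counting is not given in the sources used here, and without it reads from the shared stretch cannot be told apart. Over the 5 genes and these 4, 2 ratios were above 0 and 7 below, with a median of -0.06, against 104 above and 305 below among all 409 genes and a median of -0.09. These signs depend on the scaling, since TMM put 3 of the 5 and 3 of the 4 above 0.

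**Figure D1:**
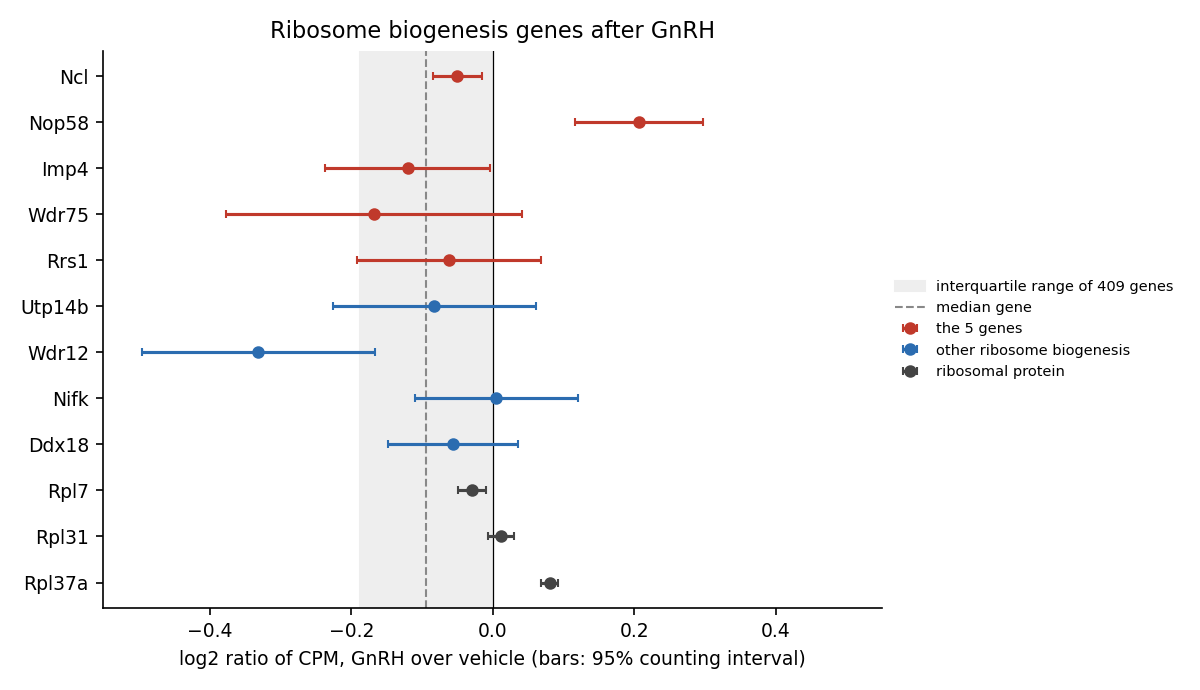
Log2 ratio of CPM in the GnRH over the vehicle library (x axis) for the 5 ribosome biogenesis genes, 4 others of the same process and 3 ribosomal protein genes, with bars for the 95% counting interval of 1 library per condition. The grey band is the interquartile range of 409 genes (-0.19 to 0.00084) and the dashed line their median, -0.09; Nop58, at 0.21, lies to the right of the band and Wdr12, at -0.33, to its left.

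The second question was how the genes vary between cells. At full depth vehicle-treated cells had a median of 6 Ncl UMIs (interquartile range 4 to 9, highest 36), and GnRH-treated cells likewise had 6 (4 to 9, highest 32). Nop58 had a median of 1 UMI in both libraries, with a highest value of 9 in vehicle-treated and 15 in GnRH-treated cells. The medians of Imp4, Rrs1 and Wdr75 were 0.

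Shares were compared after random thinning of cells to 300 UMIs, which left 1773 vehicle and 1781 GnRH cells and left out 219 and 108. At this depth a Ncl UMI was found in 95.7% of cells after vehicle and 96.0% after GnRH, with overlapping intervals. Nop58 was found in 36.9% of cells after vehicle (34.7 to 39.2%) and 43.5% after GnRH (41.2 to 45.9%), and these intervals did not overlap. Such shares lay apart for 1 of the 5 genes and for 12.5% of the 409 genes. The shares were 28.3% and 26.5% for Imp4, 23.4% and 21.2% for Rrs1, and 10.4% and 8.65% for Wdr75. Unthinned, Nop58 was found in 54.7% and 62.9% of cells and Ncl in 98.0% and 99.2%. No cell type that should lack these genes was present, so the part of each share that comes from free RNA was not measured.

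The squared coefficient of variation (CV) of each gene was set against the value that Poisson counting would give for cells of these UMI totals. None of the 5 genes reached 1.5 times this expectation in either library, against 5.81% of 344 genes after vehicle and 6.73% of 342 after GnRH whose mean was 0.1 UMI or more. Ncl came closest, at 1.36 times the expectation in vehicle-treated (CV 0.648 against 0.556) and 1.34 in GnRH-treated cells (0.614 against 0.530). These ranked 28th of 344 and 40th of 342, and the median gene was at 1.07 in each library. Nop58 followed at 1.246 and 1.21. Imp4 (1.03 and 1.02), Rrs1 (1.01 and 1.10) and Wdr75 (1.07 and 1.03) were near the median gene. For a like excess this ratio grows with the mean, which was 7.04 and 7.12 UMIs for Ncl and 0.190 to 1.13 for the other 4. The ranks therefore do not order these genes by their spread beyond counting. More abundant genes were at 1.02 and 0.887 (Rpl7), 1.10 and 1.18 (Rpl31) and 1.52 and 1.73 (Rpl37a).

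**Figure D2:**
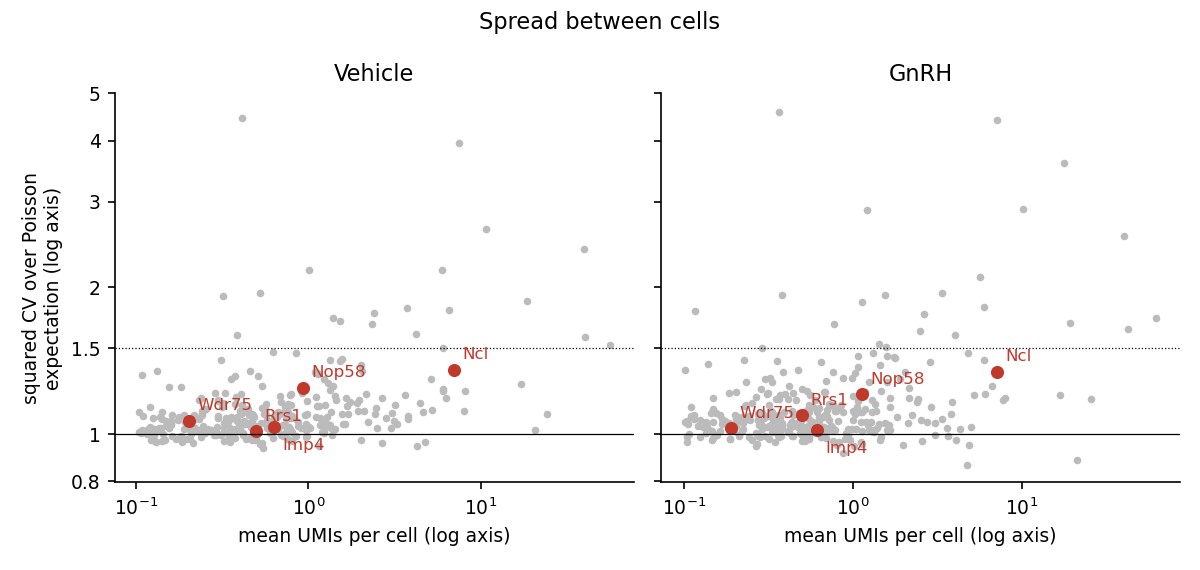
Squared CV over its Poisson expectation (y axis, log) against mean UMIs per cell (x axis, log) for each gene whose mean was 0.1 or more, with the 5 ribosome biogenesis genes in red. Ncl, at 1.36 in vehicle-treated and 1.34 in GnRH-treated cells, is the highest of the 5 and lies below the dotted line at 1.5 in both panels.

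After thinning to equal depth, the variance of Ncl was 1.36 times its mean in vehicle-treated and 1.34 times in GnRH-treated cells, where a Poisson count gives about 1 and the median gene had 1.05 in both. That of Nop58 was 1.05 and 0.985 times its mean. Excess variance over the mean grows with the mean, and thinned Nop58 means were 0.478 and 0.563 UMIs per cell against 3.75 and 3.58 for Ncl, so these values do not tell the spread of the 2 genes apart. The Ncl distribution was wide on both sides. It had 0 UMIs in 4.29% of thinned vehicle-treated cells, against 2.36% for a Poisson count of the same mean, and 8 or more in 6.66%, against 3.74%. In GnRH-treated cells these shares were 3.99% against 2.78% and 4.55% against 3.00%.

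**Figure D3:**
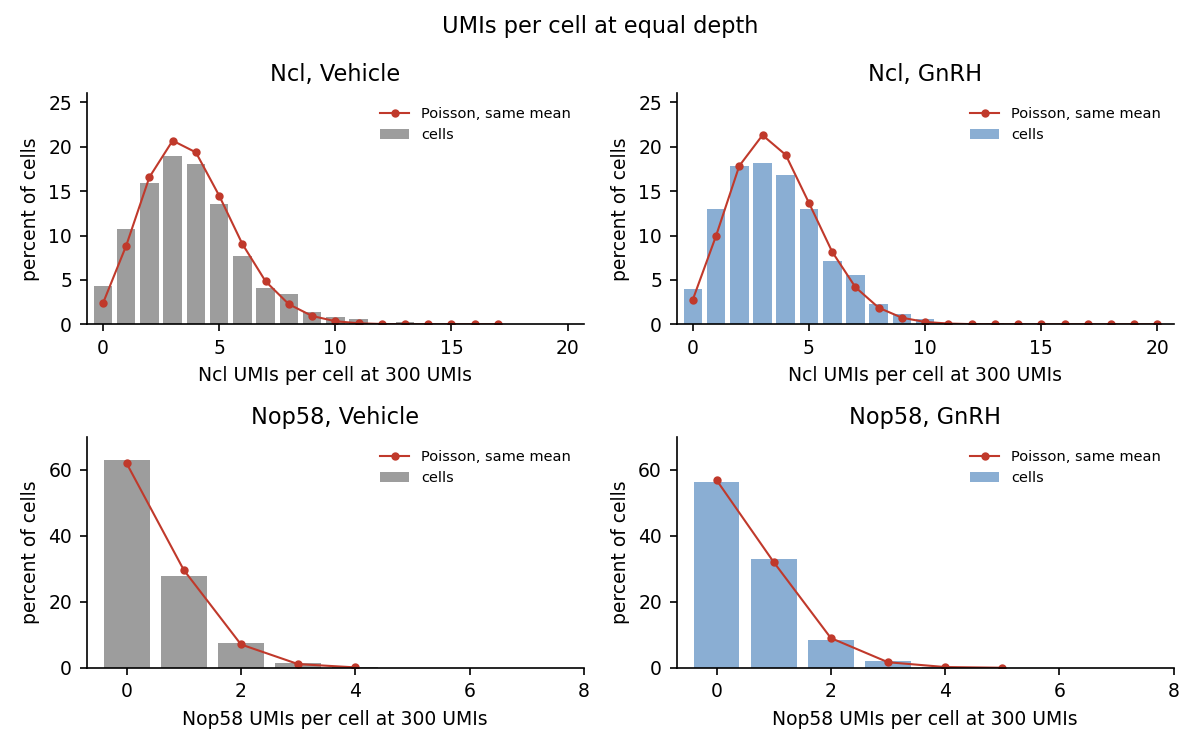
Percent of cells (y axis) by UMIs of Ncl (top) and Nop58 (bottom) after thinning to 300 UMIs per cell (x axis), in 1773 vehicle-treated (grey) and 1781 GnRH-treated cells (blue), with the Poisson distribution of the same mean in red. Ncl bars exceed the Poisson curve at 0 UMIs (4.29% against 2.36% in vehicle-treated cells) and in the summed share with 8 or more (6.66% against 3.74%), while Nop58 bars follow it.

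The level of each gene was also compared between cells of low and high UMI total. Cells of each library were divided into 4 classes of near-equal size by the UMIs of all other genes, with fewest in class 1, and the level was expressed per 1000000 of those. Nop58 was at 1504 (1312 to 1716) in class 1 of vehicle-treated cells and at 1790 (1666 to 1921) in class 4. In GnRH-treated cells the corresponding values were 1762 (1565 to 1977) and 2088 (1952 to 2232). In all 4 classes Nop58 was higher after GnRH. A class did not hold cells of equal total in the 2 libraries, since each library was divided separately. The median of other UMIs was 325.5 after vehicle and 381 after GnRH in class 1, and 820 and 838.5 in class 4. Btg2 was part of these totals, at 0.093% of analysed UMIs after vehicle and 3.00% after GnRH. The intervals of the 2 libraries overlapped in classes 1 and 2, where class 2 had 1578 and 1608, and lay apart in class 3, with 1580 and 1965, and in class 4. Of the 409 genes, 9.05%, 12.7%, 13.9% and 19.8% had intervals of the 2 libraries apart in classes 1 to 4, and 9.29% in both class 3 and class 4.

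Rrs1 was lower in class 4 than in class 1. It was at 1007 (851 to 1183) in class 1 and 783 (702 to 871) in class 4 of vehicle-treated cells, and at 971 (827 to 1134) and 718 (639 to 804) in GnRH-treated cells, where classes 2 and 3 had 847 and 951 and the values did not follow the order of the classes. The intervals of classes 1 and 4 were apart for Rrs1 in the GnRH library, and they overlapped for Rrs1 in the vehicle library and for Nop58 in both. Of the 5 genes, 1 had these intervals apart in the GnRH library, against 20.5% of the 409 genes, and 0 in the vehicle library, against 13%. Imp4 was at 1211 and 1054 in the vehicle and 1075 and 931 in the GnRH library, with overlapping intervals. Wdr75 was at 401 and 367 after vehicle and at 352 and 296 after GnRH, also with overlapping intervals. Ncl stayed between 12239 and 12859 in the vehicle and between 11996 and 12516 in the GnRH library. Whether cells of high and low UMI total differ in phase was not tested.

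**Figure D4:**
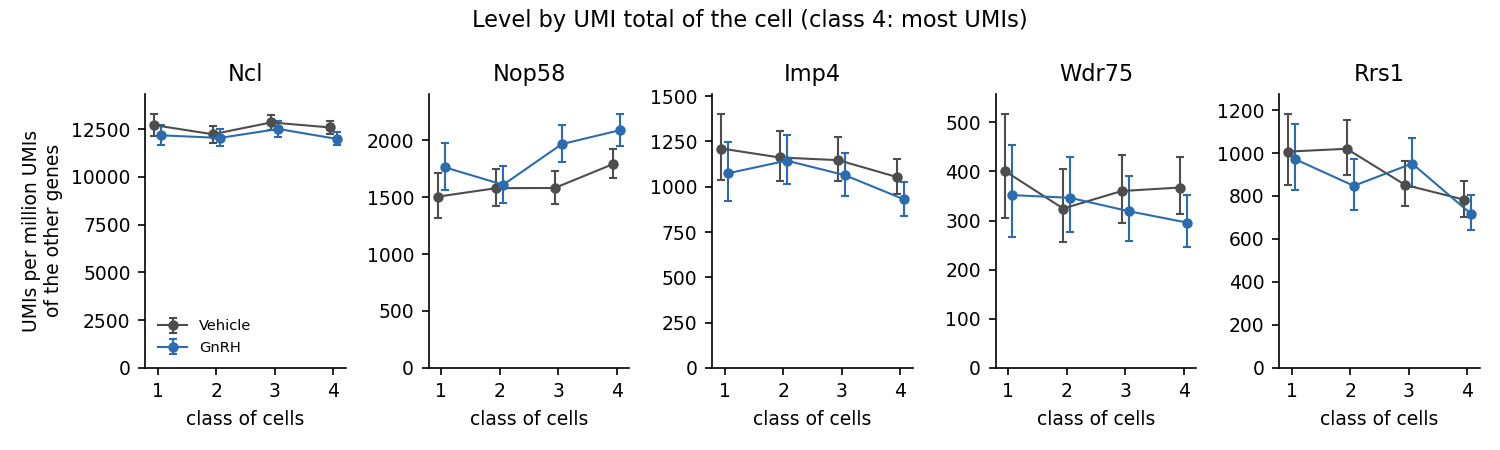
Level of each gene as UMIs per 1000000 UMIs of all other genes (y axis, from 0) in 4 classes of cells ordered by those other UMIs (x axis, class 4 with most), for the vehicle (grey) and GnRH library (blue), with bars for the 95% Poisson interval. Nop58 runs from 1504 to 1790 in vehicle-treated cells, Rrs1 from 1007 to 783, and Ncl stays between 12239 and 12859.

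The third question was whether cells rich in transcripts of 1 of these genes were rich in the others. Over the 10 pairs of the 5 genes the median Pearson correlation across cells was 0.016 in 1773 vehicle-treated cells (range -0.037 to 0.074) and 0.028 in 1781 GnRH-treated cells (-0.019 to 0.079). Without the 5% of cells with most UMIs these medians were 0.026 and -0.0023, so the sign of the GnRH median was not kept. Over all 45150 vehicle pairs of genes whose mean was 0.1 UMI or more the median was -0.00050, with 95% of pairs between -0.054 and 0.055. Cells of a library share that library and a fixed total, and at these low counts such values are a description only.

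A single thinning moved single pairs, so each was repeated over 20 further thinnings. Over all gene pairs 95% of the means of 20 thinnings lay between -0.041 and 0.039 in vehicle-treated and between -0.043 and 0.040 in GnRH-treated cells. Ncl with Nop58 had a mean of 0.082 (range 0.046 to 0.108) in vehicle-treated and 0.050 (0.019 to 0.103) in GnRH-treated cells, and was above 0 in every thinning of both libraries. For this pair the first thinning gave 0.040 in vehicle-treated cells, below that range, and 0.079 in GnRH-treated cells. A Spearman (rank) correlation on counts gave 0.024 and 0.072. Ncl with Wdr75 was above 0 in every vehicle thinning (mean 0.046) and Wdr75 with Rrs1 in every GnRH thinning (mean 0.028). These make 2 of 10 pairs in each library, against 4.21% of the 45150 vehicle and 4.36% of the 42486 GnRH pairs of genes whose mean was 0.1 UMI or more, a mean that Wdr75 did not reach in thinned GnRH-treated cells. Ncl with Imp4 (-0.017 and 0.0066) and Ncl with Rrs1 (-0.0024 and 0.0040) had means near 0. All 5 genes were detected together in 3 of 1773 thinned vehicle-treated cells, or 0.169%, against 0.243% if detection were independent, and in 6 of 1781 GnRH-treated cells, or 0.337% against 0.203%.

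The gene most like Ncl was Ptma, which encodes prothymosin alpha, a small acidic nuclear protein abundant in dividing cells. Their correlation was 0.202 in vehicle-treated and 0.135 in GnRH-treated cells, the highest of Ncl with any of 300 and 291 genes, with means of 0.189 (0.161 to 0.223) and 0.135 (0.104 to 0.165) over 20 thinnings. The next in the vehicle thinning used for ranking were Dtymk, a thymidylate kinase of DNA synthesis (0.113 and 0.051), and Nucks1, a nuclear protein phosphorylated in the cell cycle (0.104 and 0.054). Their order was not stable, since the vehicle means over 20 thinnings were 0.076 for Dtymk and 0.093 for Nucks1, and in GnRH-treated cells they ranked 15th and 11th. Nucks1 (0.076, mean 0.049 over 20 thinnings) and Ptma (0.073, mean 0.068) were also among the 3 genes most like Nop58 in vehicle-treated cells, with Rrs1 (0.074), whose mean was 0.016 (-0.022 to 0.063). In GnRH-treated cells their means with Nop58 were 0.017 for Nucks1, 0.030 for Ptma (-0.0028 to 0.062) and -0.011 for Rrs1, and they ranked 112th, 13th and 226th.

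In vehicle-treated cells Rrs1 was most like Arpc2, a subunit of the actin-nucleating Arp2/3 complex (0.092 in vehicle-treated and 0.036 in GnRH-treated cells, above 0 in every thinning of both), and then Zc3h11a and Nop58. In GnRH-treated cells Arpc2 ranked 25th for Rrs1 and Bzw1 was the highest (0.094). The 0.080 of Zc3h11a in vehicle-treated cells lay above its range over 20 thinnings (mean 0.019, -0.0052 to 0.055). For Imp4 the leading genes were Dyrk3, Cab39 and Actr3 (0.060 to 0.074 in the vehicle thinning used for ranking), with means over 20 thinnings of 0.032, 0.033 and 0.038 in vehicle-treated and 0.0020, -0.0087 and -0.0014 in GnRH-treated cells. For Wdr75 they were Acadl, Dbi and 9430016H08Rik (0.059 to 0.075), with means of 0.032, 0.028 and 0.018 in vehicle-treated and -0.0027, -0.00083 and 0.013 in GnRH-treated cells. These genes were picked as the highest values of a single vehicle thinning, and the difference between libraries was not tested.

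The lowest correlation of Ncl was with Rpl37a, the most abundant transcript analysed, at -0.151 in vehicle-treated and -0.161 in GnRH-treated cells. A fixed total of 300 UMIs alone gives -0.037 for this pair. Ncl with Rpl31 averaged -0.083 in vehicle-treated and -0.029 in GnRH-treated cells over 20 thinnings, where the fixed total gives -0.024 and -0.023, and Ncl with Rpl7 averaged -0.073 and -0.0079, where it gives -0.022 and -0.021. Nop58 with Rpl37a averaged -0.087 and -0.056. Means below 0 with Rpl37a were common, at 63% of 300 genes in vehicle-treated and 66.7% of 291 in GnRH-treated cells, with medians of -0.012 and -0.017, so the sign sets none of the 5 genes apart. Ncl had the 4th and the 3rd lowest of these means. From the lowest, Rrs1 ranked 21st and 43rd, Nop58 26th and 52nd, and Imp4 90th and 65th. Wdr75 ranked 127th in vehicle-treated cells.

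Correlations with Btg2, read as the response to GnRH, were near 0. Within GnRH-treated cells they averaged -0.018 for Ncl (-0.037 to 0.018) and 0.011 for Nop58 (-0.010 to 0.047) over 20 thinnings, and between -0.0048 (Rrs1) and 0.016 (Wdr75) for the other 3. A fixed total alone gives -0.019 for Ncl. The thinned variance of Nop58, Wdr75, Imp4 and Rrs1 was 0.985, 0.997, 1.03 and 1.04 times the mean in these cells, hardly beyond counting. Values near 0 therefore cannot show whether these genes follow the response from cell to cell.

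**Figure D5:**
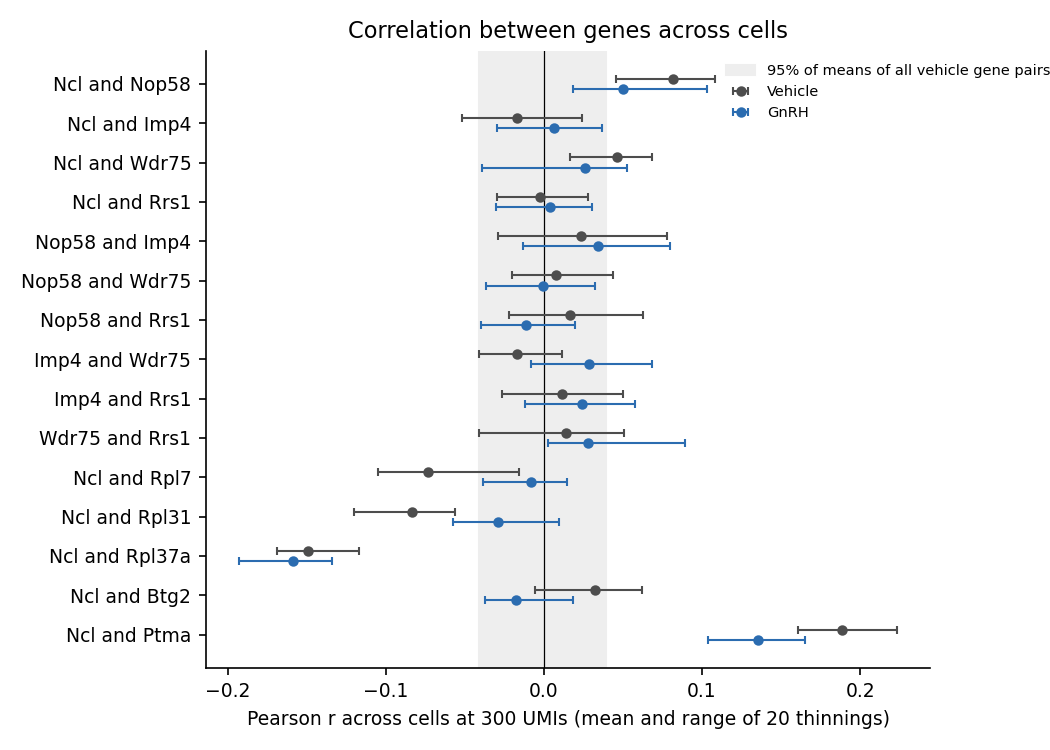
Pearson correlation across cells thinned to 300 UMIs (x axis) for the 10 pairs of the 5 genes and for Ncl with 5 other genes, in the vehicle (grey) and GnRH library (blue); points are means and bars the range of 20 thinnings. The grey band holds 95% of the means of all vehicle gene pairs over the same thinnings (-0.041 to 0.039); Ncl with Ptma (0.189 and 0.135) lies above it in both libraries and Ncl with Rpl37a (-0.149 and -0.158) below it.

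The study also asked about the cell cycle. Each cell was given 1 of 5 phases from the phase gene lists of the study, of which 4 to 6 genes per phase were kept here, so the calls are weak; none of the 5 genes was on a list. For none of the 5 genes in either library did the intervals of the phases with the highest and the lowest level lie apart, against 17.8% of 388 genes outside the phase lists after vehicle and 21.9% after GnRH. Ncl was highest in G2/M in both, at 12606 CPM in vehicle-treated and 12270 CPM in GnRH-treated cells, and lowest in M/G1, at 12236 and 11804 CPM, a 1.03- and 1.04-fold range. Wdr75 had the widest range, 1.51-fold in both, with S highest in vehicle-treated (406 CPM) and lowest in GnRH-treated cells (254 CPM).

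The log2 ratio of Nop58 between libraries was above 0 in each phase, from 0.16 in M (-0.04 to 0.37) to 0.30 in S (0.10 to 0.49), and S was the phase whose interval lay above 0. That of Ncl was below 0 in each phase, from -0.06 to -0.04, with intervals that included 0. This sign did not hold with phases called on thinned cells, where Ncl in G1/S was at 12173 CPM after vehicle and 12801 CPM after GnRH. For Imp4 (-0.35 to 0.24), Rrs1 (-0.24 to 0.10) and Wdr75 (-0.68 to 0.52) the sign differed between phases. The intervals of Imp4 in M/G1 (-0.35, -0.62 to -0.09) and of Wdr75 in S (-0.68, -1.17 to -0.19) lay below 0. With Nop58 in S these were 3 of 25 intervals that left out 0, against 21.5% of 1940 such intervals over the 388 genes outside the phase lists. With phases called on thinned cells, Nop58 was at 1658 CPM after vehicle and 1920 CPM after GnRH in S. In M/G1 it was at 1491 and 1861 CPM, so S no longer had its largest difference. Imp4 in M/G1 was then at 1214 and 1140 CPM and Wdr75 in S at 400 and 296 CPM. On these calls the phase with the highest level changed for most genes, and Ncl in the GnRH library ranged from 11216 CPM in M/G1 to 12801 CPM in G1/S with intervals apart. On those calls this was 1 of 5 genes in the GnRH library against 11.9% of the 388, and 0 of 5 in the vehicle library against 8.51%. Differences between phases were not resolved by these calls.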

How the data were processed

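Raw UMI counts per gene and cell were deposited; the authors made them with Cell Ranger 1.3, on build mm10 per the submitters' processing notes. The annotation and the use of strand are not given in the sources used here. The table analysed held 1068 of 27998 listed genes (3.81%); 1 incomplete row was left out, and 0 per-sample columns were unused. Gene positions were from GENCODE M21 (GRCm38), and promoter stretches from RefSeq.

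UMIs were summed over called cells and scaled to CPM of the analysed genes. Intervals were exact Poisson (sums), exact binomial (Clopper-Pearson, shares) and exact conditional binomial (ratios), all at 95%. Genes were called by size of the ratio (2-fold, and 25% higher or 20% lower) with at least 100 UMIs, without a test. Thinning drew 300 UMIs per cell. Phases used list genes correlated above 0.3 with their list's mean, on log2 of counts per 10000 plus 1. Doublets were not called, and the 5% of cells with most UMIs were left out as an alternative. TMM was from edgeR 4.0.16 and median-of-ratios from DESeq2 1.42.0, used for scaling only. Python 3.11.15 and SciPy 1.17.1 were used, and the scripts were tested on simulated data.

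The 5 genes and the lists were chosen with earlier results of these data known. Named genes were these 5, listed ribosome biogenesis genes with at least 100 UMIs, 3 ribosomal proteins, Btg2, and for each of the 5 genes the 3 most correlated genes in thinned vehicle-treated cells. Carf, Acsl3 and Gm28306 were added because they overlap named genes. Markers of cell types were named from a fixed list, and Bzw1 was added as the gene most correlated with Rrs1 in GnRH-treated cells.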

Additional observations from a re-analysis of the deposited data

How the results depend on the processing

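No paired analysis was possible because a lone library stood for each condition and no value came from a test. The ratios were recomputed under 8 alternatives of scaling, cell selection and depth. The log2 ratio of Ncl left its counting interval under median-of-ratios (0.0307), TMM (0.0414), unscaled mean UMIs per cell (0.0167) and without Btg2 in the totals (-0.0076), and that of Nop58 under TMM (0.30). These scalings shift all genes alike, the median gene by 0.08, 0.09, 0.07 and 0.04. The ratios of Imp4, Rrs1 and Wdr75 stayed within their intervals, and under the first 3 of these scalings 3 of the 5 genes were above 0. After thinning 1 gene, Wdr75, was more than 20% lower, at a level near 0.1 UMI per cell. How many of all genes were 20% lower after the same thinning is not given here, so this count has no background. No other alternative moved the number of the 5 genes called by the size of the ratio. Wdr12, not one of the 5, was 20% lower as reported but no longer so under 6 of the 8 alternatives, at -0.24 (TMM) to -0.30.

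With a plain Poisson expectation that ignores UMI totals, the spread of Ncl was 2.96 times the expectation in the vehicle and 2.68 times in the GnRH library, and 1 of the 5 genes was past 1.5 in each. The share of all genes past 1.5 on this plain expectation is not given here, so that count has no background. The median correlation over the 10 pairs was 0.026 in vehicle-treated and -0.0023 in GnRH-treated cells without the 5% of cells with most UMIs, against 0.016 and 0.028 with them. The cause was not tested. Levels as low as that of Wdr75 (406 and 359 UMIs), and correlations at such levels are limited by depth.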
